A study of Homo sapiens with 10 samples.

Results

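The long intergenic non-coding RNAs (lincRNAs) described here were the 237 genes typed lincRNA, in a table of 17642 genes from HCT116 cells, whose mean over the 4 siRNA libraries was at least 1 FPKM (reads scaled to the transcript length and the library size). They were 35.2% of the 673 lincRNA rows, and the other 436 had a lower mean. They were thus chosen by their mean FPKM, and their levels are given as a description. HCT116 cells come from a human colorectal carcinoma. In the first experiment, HCT116 cells received either a negative-control siRNA (siCTRL, n = 2) or the pool of 4 siRNAs labelled sip53 (n = 2). In the second, ZMAT3-WT cells (n = 3) were compared with ZMAT3-KO cells (n = 3), a single clone cut with guides on both sides of the p53 response element in the second intron of ZMAT3. Its replicates therefore carry the spread between cultures and not between clones. The labels name no p53-activating drug for any of the 10 libraries. The labels of the ZMAT3 libraries also carry the letters EV and unt, which the sources used here do not explain. RNA was captured by its poly(A) tail, so lincRNAs without one were seen poorly or not at all. The study describes its experiments as independent repeats, while the labels of the siRNA libraries do not say which culture each came from, so their p-values measure the spread between these samples.

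LincRNAs are transcribed by RNA polymerase II from their own genes between protein-coding genes and encode no long protein. Many, though not all, are spliced and polyadenylated like mRNAs. Some stay in the nucleus, where NEAT1 builds paraspeckles and MALAT1 gathers in splicing speckles, some act next to their own gene, and some are mainly the carriers of a small nucleolar RNA or a microRNA in an intron or exon. p53 binds DNA as a tetramer at response elements made of paired half-sites, and activates several non-coding genes besides its protein-coding targets. ZMAT3, itself induced by p53, is a zinc finger protein that binds RNA.

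The knockout was visible in the targeted gene. ZMAT3 was at 12 and 13.62 FPKM in the siCTRL and 3.16 and 1.97 FPKM in the sip53 libraries, and in the other table its log2 CPM was 2.89 lower in ZMAT3-KO than in ZMAT3-WT. Of 7 epithelial markers all were listed in the siRNA table, VIL1 at a mean of only 0.18 FPKM, and they summed to 3706 to 4292 FPKM per library. Of 10 blood, endothelial and fibroblast markers 5 were listed, summing to 27.9 and 40.0 FPKM with siCTRL against 19.6 and 35.8 FPKM with sip53; within that sum ACTA2 fell from 26.26 and 21.47 FPKM to 1.74 and 1.68 FPKM (limma adjusted p = 0.0105) and CD68 went from 7.97 and 2.06 FPKM to 11.60 and 26.93 FPKM (limma unadjusted p = 0.029). In ZMAT3-KO the keratins KRT19, KRT8 and KRT18 had log2 changes of -1.75, -0.94 and -0.82. The epithelial markers EPCAM, CDH1 and CLDN4 had changes of only 0.01, 0.05 and 0.03. Of the other markers, CD68 had a log2 change of 0.98, COL1A1 one of 0.16 and ACTA2 one of -0.66. The lists thus did not move as a whole. The part of these genes in the lincRNA changes was not tested. Replicate labels and values did not run together in the siRNA table: siCTRL-1 and sip53-2 lay on the same side of their group means in 74.2% of 236 lincRNAs and in 74.9% of all genes. Over the 237 lincRNAs, Pearson's r of log2 values was 0.854 between the siCTRL replicates, 0.871 between the sip53 replicates and 0.852 between siCTRL-1 and sip53-2. These correlations run across genes, which are not independent replicates.

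The type label was checked against a later annotation, GENCODE release 44 on GRCh38. It held 192 of the 237 genes by identifier. Of these, 175 were typed lncRNA, 8 protein-coding and 9 transcribed pseudogenes, and 45 genes were absent. Among the 8 now protein-coding are LINC00493 (SMIM26) and LINC00116 (MTLN), both small mitochondrial proteins, and FAM83H-AS1 (IQANK1). For 154 genes the symbol had changed, and 172 names in the table were those of genomic clones. Release 44 symbols are given here in parentheses. The name intergenic also held only in part. Exons of 109 members overlapped exons of another gene, 78 on the opposite and 52 on the same strand, and 57 members lay over the body of a protein-coding gene. Another 112 lay within 100000 bases of one and 23 farther away. The strand setting of the counting was not given in the sources used here, so reads of overlapping genes cannot be told apart.

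Sequences of 3 kinds bear on the results: microRNAs carried by lincRNA hosts described below, promoters of lincRNAs that changed in both experiments, and the promoters with a p53 half-site. All are from RefSeq on GRCh38.p14, 5′ to 3′. The mature microRNAs are printed with the seed, bases 2 to 8, in capitals, and no 2 of these seeds are the same. The oligo(dT) libraries measured the host RNA and not these microRNAs. MIR193BHG (RP11-65J21.3) carries miR-193b at chr16:14303980-14304038 and miR-365a at chr16:14309300-14309361, plus strand.
hsa-miR-193b-3p: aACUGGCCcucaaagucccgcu
hsa-miR-193b-5p: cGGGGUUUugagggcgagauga
hsa-miR-365a-3p: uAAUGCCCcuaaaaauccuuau
hsa-miR-365a-5p: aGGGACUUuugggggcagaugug

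MIR210HG carries miR-210, the microRNA induced in hypoxia, at chr11:568112-568171 on the minus strand. MIR200CHG (U47924.27) carries miR-200c and miR-141, which keep cells epithelial, at chr12:6963703-6964176 on the plus strand.
hsa-miR-210-3p: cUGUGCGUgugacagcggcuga
hsa-miR-210-5p: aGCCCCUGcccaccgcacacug
hsa-miR-141-3p: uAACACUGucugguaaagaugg
hsa-miR-200c-3p: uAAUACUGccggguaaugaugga
hsa-miR-200c-5p: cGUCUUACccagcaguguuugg

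The promoters of LNCAROD (RP11-346D6.6) and LINC00511 are shown because both genes changed in both experiments and their promoters differ in composition. Each runs from 250 bases before to 50 bases after the RefSeq start, on the minus strand, with the bases from the start onward in capitals. The LNCAROD promoter (chr10:52470484-52470783) is 36% G and C with 1 CpG, and that of LINC00511 (chr17:72640423-72640722) is 78% G and C with 35 CpG.
LNCAROD: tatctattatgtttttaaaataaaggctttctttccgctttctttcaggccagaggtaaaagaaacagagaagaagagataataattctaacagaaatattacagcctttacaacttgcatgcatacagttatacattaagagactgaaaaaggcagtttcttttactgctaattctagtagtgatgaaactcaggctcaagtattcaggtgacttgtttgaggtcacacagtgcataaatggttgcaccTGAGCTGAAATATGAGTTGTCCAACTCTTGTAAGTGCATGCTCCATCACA
LINC00511: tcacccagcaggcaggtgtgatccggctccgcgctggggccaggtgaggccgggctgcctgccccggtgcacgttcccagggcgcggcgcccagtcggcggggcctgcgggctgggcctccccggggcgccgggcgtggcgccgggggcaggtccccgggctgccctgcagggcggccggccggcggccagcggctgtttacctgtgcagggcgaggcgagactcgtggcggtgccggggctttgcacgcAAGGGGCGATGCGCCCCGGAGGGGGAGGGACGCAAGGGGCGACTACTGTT

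A p53 half-site, whose consensus reads alike on both strands, occurred in 6.54% of the 27305 RefSeq promoters of that length. It occurred in the promoters of 2 of the 96 lincRNAs that could be matched by name (2.08%). LINC00623 and RP11-403I13.7 were matched to the same promoter, and NEAT1 was among the lincRNAs without a match. A pair of half-sites up to 13 bases apart occurred in 8 of all promoters and for 0 of the 96 lincRNAs. By call with sip53, a half-site was in the promoters of 0 of 14 higher, 1 of 9 lower and 1 of 73 uncalled lincRNAs. The promoters with one were those of SCAMP1-AS1 (CTD-2037K23.2; chr5:78360495-78360554, minus strand), where it lies just after the start, and LINC00839 (chr10:42475451-42475510, plus strand), where it lies before the start. The capitals mark the half-site. A match is a string of letters and was not tested for binding.
SCAMP1-AS1: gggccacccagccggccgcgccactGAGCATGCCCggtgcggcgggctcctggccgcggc
LINC00839: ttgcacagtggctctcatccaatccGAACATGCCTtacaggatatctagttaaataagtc

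SCAMP1-AS1 was at 1.67 and 2.17 FPKM with siCTRL and at 0.83 and 1.22 FPKM with sip53 (log2 change -0.86, limma unadjusted p = 0.048, adjusted p = 0.324). Its call was lost without siCTRL-1, siCTRL-2 or sip53-1, and also without the filter on low values or after centring each library on its median gene. LINC00839 was at 3.79 and 3.80 FPKM with siCTRL and at 2.91 and 3.23 FPKM with sip53 and did not pass the test.

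LincRNAs were a small part of the measured RNA. They summed to 1431 and 1523 FPKM with siCTRL and to 1728 and 1537 FPKM with sip53, which was 0.181% to 0.232% of all FPKM in a library. Their median mean level was 2.43 FPKM, against 14.6 FPKM for the 11580 protein-coding genes of at least 1 FPKM. Of the 237 genes, 63 reached 5 FPKM, 32 reached 10, 16 reached 20 and 4 reached 50. The number of reads behind each value was low. The authors' mean normalised read count per gene, the only measure of depth in the table, had a median of 64.6 for lincRNAs and 1038 for those protein-coding genes, and 104 lincRNAs had a mean count under 50. The median SD within a group was 0.28 on the log2 scale for lincRNAs and 0.21 for protein-coding genes. At like depth it was not regularly larger for lincRNAs. Under a mean count of 20 it was 0.45 against 0.74, and from 20 to 50 it was 0.29 against 0.41. From 50 to 100 it was 0.31 against 0.30, and from 100 to 500 it was 0.21 against 0.22. From 500 it was larger for lincRNAs, at 0.27 against 0.20.

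The 12 most abundant lincRNAs held 38.8% to 46.0% of the summed lincRNA FPKM. Highest was the row named SNORA76, whose identifier belongs to SNHG25, a small nucleolar RNA host, at 115.46 and 132.91 FPKM with siCTRL against 330.96 and 228.47 FPKM with sip53. Its exons span 340 bases and its authors' mean count was 60.3, so few reads carry a large length-scaled level. LINC00493 followed at 68.88, 86.59, 79.49 and 55.04 FPKM in siCTRL-1, siCTRL-2, sip53-1 and sip53-2. LINC00152 (CYTOR), a cytoplasmic RNA raised in many tumours, was at 55.61, 51.07, 49.53 and 61.89 FPKM in the same order. LINC00657 (NORAD), which binds Pumilio proteins and guards chromosome stability, was at 47.70, 56.92, 43.91 and 31.42 FPKM and had the highest authors' mean count (7115). LINC00511 was at 47.60, 43.45, 29.70 and 28.46 FPKM. Between SNORA76 and LINC00493 the libraries did not overlap. From LINC00493 down to LINC00511 the neighbouring genes in this order overlapped. Also among the 12 were RP11-297P16.4, SNHG9, MIR4435-1HG (MIR4435-2HG), RP11-773D16.1 (NUTM2B-AS1), LINC00116, RP11-438N16.1 (LINC01234) and RP11-304L19.5 (SNHG19).

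**Figure D1:**
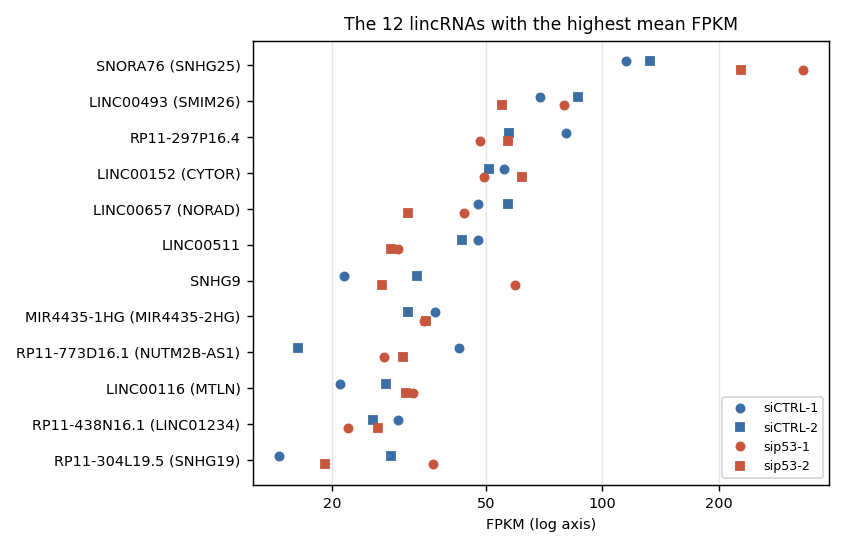
FPKM on a log axis of the 12 lincRNAs with the highest mean, 1 point for each of the 4 siRNA libraries. The SNORA76 row stands above the rest in every library, and for SNHG9 the sip53 values of 59.37 and 26.93 lie on both sides of the siCTRL value of 33.15.

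The lincRNAs next to the threshold were LINC02008 (RP11-260O18.1), INO80D-AS1 (AC007383.3) and LINC00992, each with a mean of 1.00 FPKM, just inside, and RP11-268G12.3 (0.978 FPKM), RP11-134G8.8 (0.975 FPKM) and RP11-575F12.2 (0.975 FPKM), just outside. RP11-134G8.8 was at 1.90, 1.67, 0.09 and 0.24 FPKM in siCTRL-1, siCTRL-2, sip53-1 and sip53-2, so a lincRNA that was low after the knockdown could fall below the threshold for that reason. Conversely, 40 of the 237 had a mean under 1 FPKM in 1 of the groups and were members through the other. The rule thus favoured genes that differed at this level, and 17 of these 40 were called below. Among the 17 were LINC00431, MIR193BHG, LINC01963, FTX and LUCAT1, so the rule favoured the changes given for them.

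With sip53, 35 lincRNAs (14.8%) were higher and 30 (12.7%) lower at a limma unadjusted p of 0.05 on log2(FPKM + 0.1). Over the 14274 genes tested the shares were 5.86% higher and 9.28% lower, and in either direction 27.4% of lincRNAs against 15.1% of genes. Among the 13023 genes of at least 1 FPKM they were 5.97% and 9.62%, and among those typed antisense 7.88% in each direction. Of the 197 lincRNAs with at least 1 FPKM in both groups, 25 (12.7%) were higher and 23 (11.7%) lower. After adjustment over all genes, 0 lincRNAs were under 0.05, as 0.273% of genes were; the lowest adjusted p was 0.0679, for LINC00431. With siCTRL-1 paired to sip53-2 as a crossed block, chosen after seeing the data, 84 lincRNAs and 25.5% of all genes were under 0.05. All 65 calls had groups that did not overlap, and 62 were past 1.5-fold. Without regard to p, groups did not overlap for 68 higher and 63 lower lincRNAs (28.7% and 26.6%), against 20.1% and 26.3% of all genes. In bulk RNA, fewer cells with a transcript and less of it per cell cannot be told apart.

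The lincRNAs spread more widely around the same centre. Their median log2 change was 0.02, against -0.04 for all genes tested and -0.05 for protein-coding genes, and their median absolute change was 0.50 against 0.26 for protein-coding genes. When the median gene of every library was set equal, the calls over all genes went from 836 higher and 1325 lower to 1120 higher and 1048 lower. By authors' mean count, 6 lincRNAs were higher and 5 lower of the 49 under 20, 9 and 7 of 55 from 20 to 50, 10 and 4 of 45 from 50 to 100, 9 and 9 of 68 from 100 to 500, and 1 and 5 of 20 from 500. In the same order of bins, the shares called higher were 12.2%, 16.4%, 22.2%, 13.2% and 5% of lincRNAs. Among protein-coding genes they were 9.09%, 11%, 7.95%, 6.88% and 5.1%. The shares called lower were 10.2%, 12.7%, 8.89%, 13.2% and 25% of lincRNAs, against 4.55%, 8.14%, 9.16%, 10.3% and 9.91% of protein-coding genes. The part of depth in the difference from protein-coding genes was not tested.

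**Figure D2:**
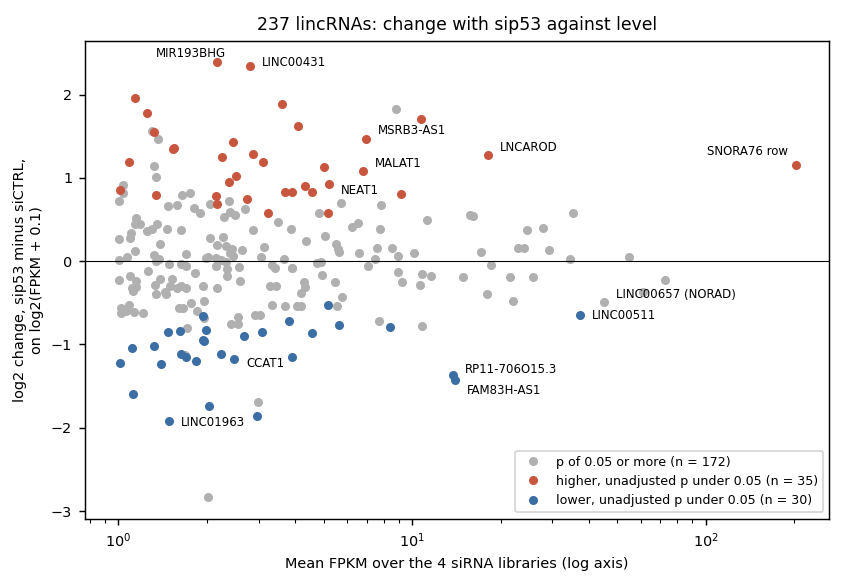
Log2 change with sip53 on log2(FPKM + 0.1) against mean FPKM (log axis), 1 point for each of the 237 lincRNAs, coloured by call. The changes fan out toward low levels, and the called lincRNAs had means of 1.02 to 201.95 FPKM (higher) and 1.02 to 37.3 FPKM (lower).

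The architectural RNAs of the nucleus were on both sides. NEAT1 (chr11:65422774-65445540, plus strand), the scaffold of paraspeckles, was at 3.87 and 3.26 FPKM with siCTRL against 6.33 and 7.34 FPKM with sip53. Each sip53 value was above each siCTRL value, and NEAT1 rose 1.89-fold (log2 change 0.92 ± 0.21 SE, n = 2 against 2, limma unadjusted p = 0.0061, adjusted p = 0.17). NEAT1 is itself a published p53 target, and among the lincRNAs of at least 1 FPKM it was the sole one from the list of p53-linked RNAs. How the rise of NEAT1 with sip53 relates to that status was not tested. Its neighbour MALAT1 (chr11:65497640-65508073), the speckle RNA, was at 3.05 and 5.52 FPKM with siCTRL against 12.17 and 6.39 FPKM with sip53. The groups did not overlap but nearly met, and the call of the rise (log2 change 1.08 ± 0.42 SE, limma unadjusted p = 0.046) was lost without siCTRL-1 (0.67) or without sip53-1 (0.63). The MALAT1 call was also lost without the filter on low values or without the variance trend. Reads over MALAT1 and its antisense transcript cannot be told apart here. Poly(A) capture sees forms of NEAT1 and MALAT1 without a tail poorly or not at all. Which forms these values measure was not tested. FRMD8, the protein-coding gene nearest to NEAT1, had a log2 change of -0.86 (limma unadjusted p = 0.034).

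JPX and FTX, neighbours of XIST in the X-inactivation centre, were lower. JPX was at 5.45 and 4.09 FPKM with siCTRL against 2.94 and 2.71 FPKM with sip53 (log2 change -0.72, limma unadjusted p = 0.026). FTX was at 1.01 and 2.48 FPKM with siCTRL against 0.29 and 0.71 FPKM with sip53 (log2 change -1.59, limma unadjusted p = 0.041), with an authors' mean count of 17.1. The siCTRL values of both lay above their sip53 values. The FTX call was lost without siCTRL-2 (log2 change -0.98) or sip53-1 (-1.06), and that of JPX without siCTRL-1 (-0.52) or sip53-2 (-0.67). That of FTX was also lost without the filter on low values or after centring each library on its median gene. NORAD (log2 change -0.49, limma unadjusted p = 0.09) and CRNDE (0.91, 2.36, 2.63 and 0.92 FPKM in siCTRL-1, siCTRL-2, sip53-1 and sip53-2) did not pass. Over this list of nuclear and structural RNAs, whatever their gene type, 2 of 10 tested were higher and 3 lower, with a median log2 change of -0.20. Of all genes tested, 5.86% were higher and 9.28% lower.

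Of 22 names of RNAs linked to p53 in earlier work, 8 were listed with siRNA values. An RNA can be on this list under more than a single name. The names not listed may thus belong to RNAs listed under another name, and no level was read for them. Among the 8, the genes typed lincRNA other than NEAT1 were below the level that defines the group. RP3-510D11.2 was at 2.20 and 1.40 FPKM with siCTRL and listed at 0 in both sip53 libraries (limma unadjusted p = 0.0004, adjusted p = 0.0792), with a mean of 0.90 FPKM. Its authors' mean count was only 2.52, so this change rested on very few reads. LINC01021 was at 0.21 and 0.55 FPKM with siCTRL and listed at 0 in both sip53 libraries, under the level tested. MIR22HG was at 0.86, 0.99, 1.07 and 0.46 FPKM in siCTRL-1, siCTRL-2, sip53-1 and sip53-2, and did not pass. Of the 6 genes of the p53-linked list that were tested, 1 was higher and 2 lower, beside 5.86% and 9.28% of all genes. The median log2 change of the 6 was -0.20. The lower ones were RP3-510D11.2 and TUG1, which is typed antisense and so not a member. TUG1 was at 20.40 and 16.53 FPKM with siCTRL against 5.34 and 6.91 FPKM with sip53 (log2 change -1.58, limma unadjusted p = 0.0007, adjusted p = 0.0909).

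Among hosts of small RNAs, the SNORA76 row rose 2.22-fold (log2 change 1.15 ± 0.25 SE, limma unadjusted p = 0.0048, adjusted p = 0.158), with both sip53 values above both siCTRL values. SNHG9 (21.50, 33.15, 59.37 and 26.93 FPKM), SNHG15 (16.37, 27.33, 27.31 and 20.55 FPKM) and EPB41L4A-AS1 (21.00, 25.04, 20.41 and 19.88 FPKM) are lincRNA hosts of small nucleolar RNAs that did not pass. For SNHG9 and SNHG15 siCTRL-2 and sip53-1 were the higher replicates. Over the listed hosts of small nucleolar RNAs of any gene type, 4 of 16 were higher and 0 lower, with a median log2 change of 0.29. That count does not include the SNORA76 row, whose name differs. Over all genes the shares were 5.86% higher and 9.28% lower.

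Among the microRNA hosts described in this paragraph, MIR210HG and MIR193BHG were called higher with sip53. MIR210HG was at 2.77 and 3.80 FPKM with siCTRL against 6.40 and 5.34 FPKM with sip53, without overlap (log2 change 0.83, limma unadjusted p = 0.018), a call lost without siCTRL-1 (0.61) or sip53-1 (0.70). MIR193BHG was at 1.62 and 0.15 FPKM with siCTRL against 2.50 and 4.41 FPKM with sip53. Its log2 change of 2.38 was the largest rise among called lincRNAs, but rested on an authors' mean count of 12.3 and its call was lost without siCTRL-2 (0.99) or sip53-2 (1.99), and also without the filter on low values or the variance trend. MIR200CHG was at 4.30 and 4.43 FPKM with siCTRL against 2.48 and 3.59 FPKM with sip53, a difference that did not pass (log2 change -0.53, limma unadjusted p = 0.087). MIR4435-1HG was level at 36.97, 31.51, 34.65 and 35.10 FPKM. Over the list of microRNA hosts, 1 of 8 tested was higher and 0 lower, beside 5.86% and 9.28% of all genes. The median log2 change of the list was 0.19. The count leaves out hosts whose rows carry another name, among them MIR193BHG, MIR200CHG and LINC00669 (MIR924HG).

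LincRNAs studied in colorectal and other cancers included CCAT1 (colon cancer associated transcript, near MYC) at 4.13 and 2.83 FPKM with siCTRL against 1.26 and 1.69 FPKM with sip53. It fell (log2 change -1.17, limma unadjusted p = 0.011), a call lost without siCTRL-1 (-0.91). LINC00511 fell 1.56-fold, from 47.60 and 43.45 FPKM to 29.70 and 28.46 FPKM (log2 change -0.64 ± 0.17 SE, limma unadjusted p = 0.012), and was the most abundant lincRNA that fell; the call was lost without siCTRL-1, siCTRL-2 or sip53-2, at log2 changes of -0.58, -0.71 and -0.61. LINC00941 was at 5.75 and 6.52 FPKM with siCTRL against 4.11 and 4.34 FPKM with sip53 (log2 change -0.53, limma unadjusted p = 0.04), and lost its call when any of the 4 libraries was left out. The LINC00941 call was also lost after centring each library or when only genes averaging 5 FPKM or more were fitted. LINC00973 was at 2.68, 2.54, 5.63 and 3.92 FPKM and LUCAT1, an RNA of stress responses, at 0.74, 0.65, 1.31 and 1.36 FPKM in siCTRL-1, siCTRL-2, sip53-1 and sip53-2. Both were higher (log2 changes 0.83 and 0.85, limma unadjusted p = 0.021 and 0.044). The calls of LINC00973 without siCTRL-1, siCTRL-2 or sip53-1 (0.57 to 0.86) and of LUCAT1 when any of the 4 libraries was left out (0.77 to 0.94) were lost. LINC00460 was at 10.83, 9.38, 8.78 and 8.09 FPKM and TINCR, known from epidermal differentiation, at 2.48, 1.95, 1.85 and 2.65 FPKM. Neither passed. Over the colorectal cancer list, 3 of 17 tested genes were higher and 3 lower, beside 5.86% and 9.28% of all genes. The median log2 change of the list was 0.06.

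The largest rises and falls were mostly in genes of unknown function. LINC00431 was at 0.94 and 0.76 FPKM with siCTRL and at 5.48 and 4.04 FPKM with sip53, a rise of 5.08-fold (log2 change 2.35 ± 0.29 SE, limma unadjusted p = 0.0003, adjusted p = 0.0679). It was a member only through its sip53 values. Release 44 types it as a transcribed pseudogene of 159 exonic bases (chr13:110989980-110990138) that overlaps exons of another gene on its strand. LNCAROD was at 11.23 and 9.94 FPKM with siCTRL against 25.25 and 26.15 FPKM with sip53 (2.42-fold, log2 change 1.27 ± 0.18 SE, limma unadjusted p = 0.0006, adjusted p = 0.0883). RP11-553L6.5, within ZBTB20, was at 2.04, 1.86, 5.58 and 6.92 FPKM in siCTRL-1, siCTRL-2, sip53-1 and sip53-2. MSRB3-AS1 (RP11-230G5.2) was at 4.17, 3.15, 10.01 and 10.44 FPKM in that order. In each of these 4 the gap between the groups exceeded the distance between the replicates, and each kept its call in every alternative fit. LINC01405 (RP1-46F2.2) was at 3.11 and 7.54 FPKM with siCTRL against 17.97 and 14.43 FPKM with sip53 (log2 change 1.71, limma unadjusted p = 0.0092). GIHCG (RP11-620J15.3) was at 3.24, 2.99, 6.70 and 7.17 FPKM (log2 change 1.13, limma unadjusted p = 0.0017).

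Among called lincRNAs the largest falls were those of LINC01963, at 2.06 and 2.76 FPKM with siCTRL against 0.55 and 0.56 FPKM with sip53 (log2 change -1.92 ± 0.32 SE, limma unadjusted p = 0.0015), and CTD-2521M24.9, at 4.45, 4.81, 1.82 and 0.79 FPKM (log2 change -1.85). RP11-706O15.3 fell at a higher level, from 20.70 and 19.08 FPKM to 7.24 and 8.06 FPKM (2.58-fold lower, log2 change -1.37 ± 0.18 SE, limma unadjusted p = 0.0004, adjusted p = 0.0809). In all 3 both sip53 values were under both siCTRL values. FAM83H-AS1 was at 15.32 and 25.11 FPKM with siCTRL against 10.43 and 4.97 FPKM with sip53 (log2 change -1.43, limma unadjusted p = 0.018), and missed the threshold without siCTRL-2 (-1.08). FAM83H, over which it lies, had a log2 change of -0.60 (limma unadjusted p = 0.016). Large fold changes alone did not make a call. FOXD1-AS1 (RP11-79P5.2) was at 0.48 and 12.23 FPKM with siCTRL against 17.38 and 5.07 FPKM with sip53, and LINC02193 (AC137934.1) at 0.42, 7.28, 0.28 and 0.10 FPKM. In both, the siCTRL replicates lay farther apart than the group means. The single member with a library listed at 0 was ZNF888, at 0.31, 4.22, 7.14 and 0 FPKM.

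**Figure D3:**
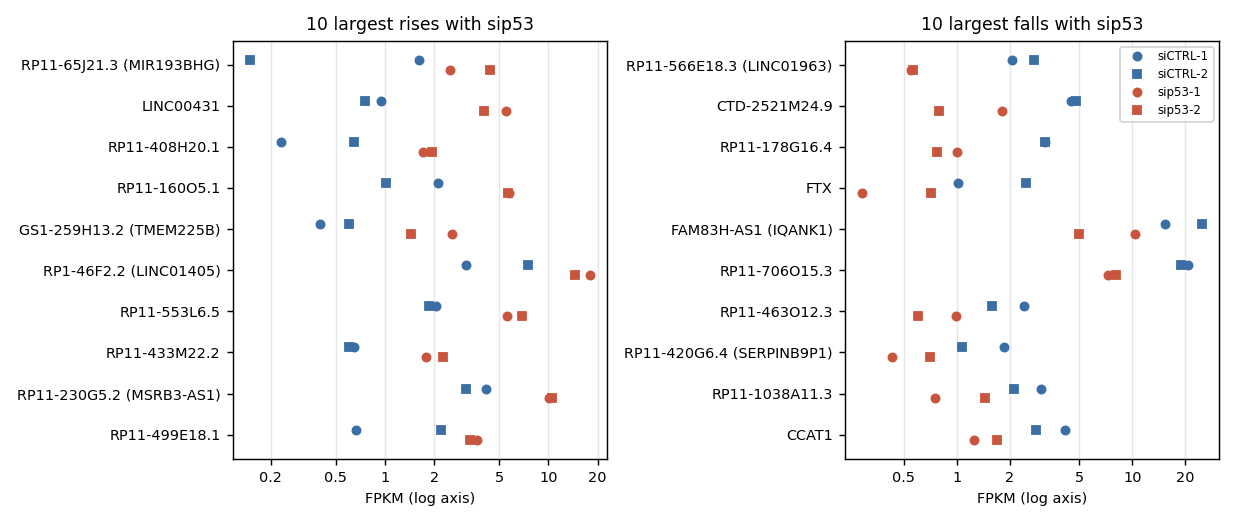
FPKM on a log axis, 1 point per siRNA library, of the 10 lincRNAs with the largest rise (left) and the largest fall (right) with sip53 among those at an unadjusted p under 0.05. For LINC00431 and LINC01963 the replicates lie close together, while siCTRL-2 of MIR193BHG, at 0.15, lies far below siCTRL-1, at 1.62.

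Of the lincRNAs, 40 started within 1000 bases of a protein-coding gene on the other strand, an arrangement in which both genes may share a promoter region. Of these, 7 (17.5%) were higher with sip53 and 3 (7.5%) lower, beside 14.8% and 12.7% of all 237 and 5.86% and 9.28% of all genes. Across the 39 pairs with both genes tested, Pearson's r of the log2 changes was -0.03 and Spearman's rho -0.06, which describes genes of the same libraries. For the 10 called members the partner passed the test in the same direction in 1 pair and in the opposite direction in 1. OSER1-DT (OSER1-AS1) was at 1.95, 2.09, 3.55 and 3.36 FPKM in siCTRL-1, siCTRL-2, sip53-1 and sip53-2 (log2 change 0.75), and OSER1 had a log2 change of 0.64 (limma unadjusted p = 0.015). VPS13B-DT (RP11-410L14.2) was at 1.60, 1.56, 2.48 and 4.40 FPKM (log2 change 1.02), while VPS13B had a log2 change of -0.88 (limma unadjusted p = 0.0092). The OSER1-DT call was lost when any of the 4 libraries was left out, and that of VPS13B-DT without siCTRL-1, siCTRL-2 or sip53-2. Over the 138 members whose nearest protein-coding gene was tested, r was 0.24 and rho 0.18. Near LINC00973, DCBLD2 had a log2 change of -1.36 (limma unadjusted p = 0.0023), and near LINC00431, ANKRD10 had a log2 change of 0.98 (limma unadjusted p = 0.012). Among the 41 called members with a tested neighbour, 5 neighbours passed in the same direction and 6 in the opposite one.

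The comparison of ZMAT3-KO with ZMAT3-WT could be read for fewer lincRNAs, since that table lists genes by symbol. By name 36 of the 237 had a row, and 201 did not. Among those 36 the name was the current symbol for 29. With the symbol of release 44 as a second key the number was 77; both are given, since a name can change hands between releases. All values in this part are given as log2 of CPM (counts relative to a library total), which are not scaled to length and are compared only within a gene. By name, 4 lincRNAs were higher and 5 lower (25%) at a limma adjusted p of 0.05 over all genes and 1.5-fold, against 4.6% and 4.37% of the 13029 genes. By name or symbol it was 7 and 7 of 77 (18.2%), against 8.96% of genes in either direction. At an adjusted p alone, 10 of the 36 were higher and 13 lower, against 28.7% and 30.1% of genes. The median log2 change was -0.02 for the 36 and -0.03 for the 77, against -0.01 for all genes.

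LNCAROD, joined by its symbol, fell the most. It was at 2.46, 2.43 and 2.44 log2 CPM in ZMAT3-WT and at -1.74, -1.37 and -2.0 in ZMAT3-KO (17.7-fold lower, log2 change -4.15 ± 0.18 SE, limma adjusted p = 1.11e-09). LINC00326 was at 0.51, 0.83 and 1.08 in ZMAT3-WT and at -2.0, -2.33 and -2.36 in ZMAT3-KO (8.22-fold lower, limma adjusted p = 5.55e-07). In both the groups lay far apart compared with their own spread, and the values stayed above the table's lowest value of -6.62. PRKCQ-AS1 was at 2.49, 2.47 and 2.64 in ZMAT3-WT and 1.45, 1.34 and 1.37 in ZMAT3-KO (log2 change -1.15, limma adjusted p = 3.16e-07). PRKCQ, a kinase gene that starts next to it on the other strand, had a log2 change of -0.88 (limma adjusted p = 4.27e-07). LINC00460 (2.17, 1.81 and 2.09 against 0.95, 1.09 and 1.24), SNHG9 (4.05, 3.87 and 3.92 against 3.09, 3.25 and 3.19) and LINC00511 (4.16, 4.23 and 4.26 against 3.53, 3.62 and 3.64) also fell, with log2 changes of -0.93, -0.77 and -0.62. The LINC00511 call missed 1.5-fold without ZMAT3-KO replicate 1 (-0.58). LINC02609, joined by symbol, also fell, with a log2 change of -0.67, and missed 1.5-fold without ZMAT3-KO replicate 3 (-0.53). LNCAROD, LINC00326 and the others were measured in 1 clone, so the clone and the knockout cannot be told apart.

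AL589743.1 (DUXAP9, a transcribed pseudogene in release 44) rose the most, from 2.10, 2.12 and 2.06 log2 CPM in ZMAT3-WT to 3.22, 3.22 and 3.19 in ZMAT3-KO (2.16-fold, limma adjusted p = 2.4e-08). Its family holds near-identical copies, between which counting may divide reads. NEAT1 was at 4.10, 3.95 and 4.03 in ZMAT3-WT and 4.62, 4.77 and 4.82 in ZMAT3-KO (1.64-fold, log2 change 0.71 ± 0.06 SE, limma adjusted p = 5.26e-07). TINCR was at 1.56, 1.44 and 1.51 in ZMAT3-WT and 2.04, 2.29 and 2.40 in ZMAT3-KO, and LINC00909 at 2.93, 3.04 and 2.95 against 3.69, 3.49 and 3.58, with log2 changes of 0.74 and 0.61. Every ZMAT3-KO value of these 4 was above every ZMAT3-WT value. The call of LINC00909 missed 1.5-fold without ZMAT3-KO replicate 1 (0.56). By symbol MIR193BHG (log2 change 0.97), GIHCG (0.86) and EDRF1-DT (0.64, with overlapping groups) were higher too. The EDRF1-DT call was lost without ZMAT3-WT replicate 2 or 3 or ZMAT3-KO replicate 1 or 3. MALAT1 was at 4.83, 4.90 and 4.94 in ZMAT3-WT and 5.16, 5.42 and 5.46 in ZMAT3-KO, a log2 change of 0.46 under the 1.5-fold limit (limma adjusted p = 7.82e-05). NORAD was at 7.47, 7.75 and 7.68 against 7.65, 7.73 and 7.68 and did not pass.

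By the lists, of any gene type, 0 of 22 listed hosts of small nucleolar RNAs were higher in ZMAT3-KO and 1, SNHG9, was lower. Beside the counts of this paragraph, 4.6% of all genes were higher and 4.37% lower. Of 14 nuclear and structural RNAs, 1 (NEAT1) was higher and 0 lower, with a median log2 change of 0.25. On that list RMRP, RPPH1 and RN7SK had uncalled log2 changes of 0.65, 1.25 and 0.78 that leaned on a single library. They were at 4.96, 4.26 and 5.47 log2 CPM in ZMAT3-KO-3, against 2.11, 0.26 and 2.76 in ZMAT3-KO-1 and 2.42, 1.24 and 2.96 in ZMAT3-KO-2. Their part in the median was not tested. The colorectal cancer list had 3 of 14 higher and 3 lower (median -0.12). Of 11 microRNA hosts 1 was higher and 1 lower (median 0.22), and of 6 p53-linked RNAs 1 was higher and 1 lower (median -0.01).

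**Figure D4:**
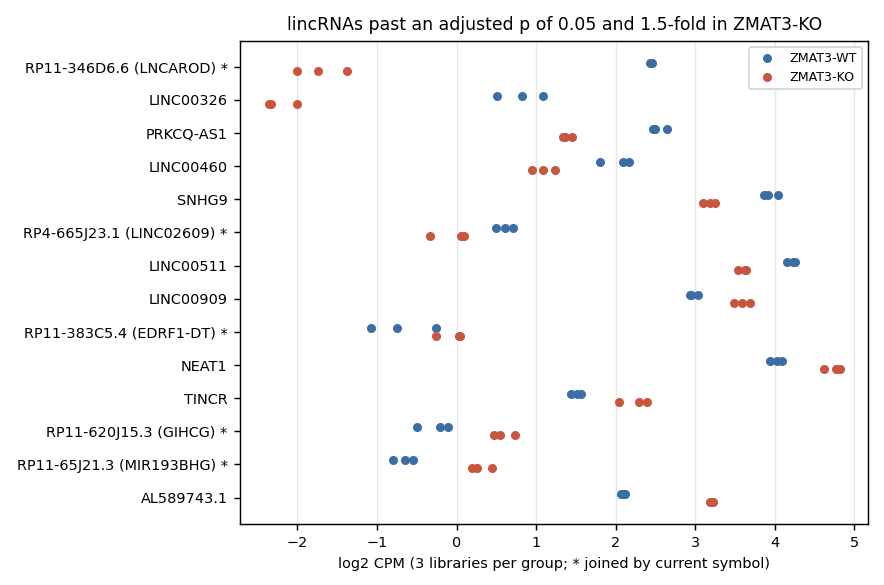
Log2 CPM of lincRNAs called in ZMAT3-KO, 1 point for each of the 3 ZMAT3-WT and 3 ZMAT3-KO libraries; an asterisk marks a gene joined by its release 44 symbol. LNCAROD falls from about 2.44 to -1.70 and LINC00326 from 0.81 to -2.23, while NEAT1 goes from 4.02 to 4.74 (group means).

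The experiments share no sample, so each lincRNA can be set side by side in both. Of the 9 lincRNAs called with sip53 and joined by name, 5 were at an unadjusted p under 0.05 in ZMAT3-KO. MALAT1 and NEAT1 were higher in both, LINC00511 and SRP14-AS1 lower in both, and FTX was lower with sip53 and higher in ZMAT3-KO. By this threshold 30.8% of all genes were higher and 32.4% lower in ZMAT3-KO, so such a match is common in that table. SRP14-AS1 was at 2.52, 2.62, 1.39 and 1.41 FPKM in siCTRL-1, siCTRL-2, sip53-1 and sip53-2 (log2 change -0.83, limma unadjusted p = 0.018), a call lost when any of the 4 libraries was left out, and had a log2 change of -0.35 in ZMAT3-KO (limma adjusted p = 0.0464). FTX was at 2.35, 2.45 and 2.64 log2 CPM in ZMAT3-WT and 2.96, 3.02 and 3.15 in ZMAT3-KO (log2 change 0.56, limma adjusted p = 0.0001). By name or symbol, 11 of 23 called lincRNAs passed in both tables, 4 higher in both, 4 lower in both, 2 higher with sip53 and lower in ZMAT3-KO, and 1 the reverse.

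Besides FTX, LNCAROD and the SNORA76 row changed in opposite directions at an unadjusted p. LNCAROD was 2.42-fold higher with sip53 and 17.7-fold lower in ZMAT3-KO. The SNORA76 row, joined to SNHG25, was at 1.31, 0.94 and 0.99 log2 CPM in ZMAT3-WT and 0.65, 0.90 and 0.73 in ZMAT3-KO (limma unadjusted p = 0.042, adjusted p = 0.0686). GIHCG and MIR193BHG, the latter with the lost calls given above, were higher in both, and FAM83H-AS1 and BAIAP2-AS1 lower in both. For FAM83H-AS1, joined to IQANK1, the log2 change in ZMAT3-KO was only -0.11 (limma adjusted p = 0.027). BAIAP2-AS1 (BAIAP2-DT) was at 7.12, 7.11, 3.86 and 4.46 FPKM in siCTRL-1, siCTRL-2, sip53-1 and sip53-2 and at 4.05, 4.01 and 4.00 log2 CPM in ZMAT3-WT against 3.69, 3.70 and 3.64 in ZMAT3-KO; its call with sip53 was lost without either siCTRL library. LincRNAs called in ZMAT3-KO and not past the test with sip53 included PRKCQ-AS1, at 4.51, 5.02, 5.53 and 3.97 FPKM, and TINCR. Across lincRNAs, which are not independent, Pearson's r of the log2 changes in the experiments was -0.11 over the 36 and -0.10 over the 77, with Spearman's rho of 0.04 and 0.03.

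**Figure D5:**
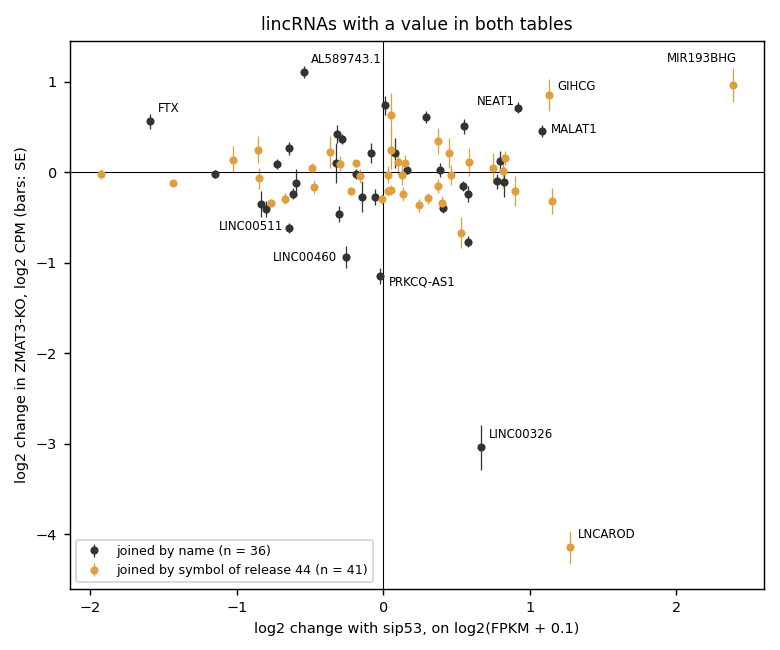
Log2 change in ZMAT3-KO (log2 CPM, bars are SE) against log2 change with sip53 (log2(FPKM + 0.1)) for the 77 lincRNAs found in both tables, coloured by whether they were joined by name or by release 44 symbol. LNCAROD lies alone at 1.27 and -4.15, LINC00326 at 0.67 and -3.04, and NEAT1 at 0.92 and 0.71.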

How the data were processed

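RNA-seq values of 10 HCT116 libraries were taken from 2 tables. Per the labels and methods, mRNA was captured on oligo(dT). The authors trimmed the ZMAT3 reads, aligned them to hg38 with STAR, quantified genes with RSEM and deposited log2 CPM. The 6 columns share 1 distribution, as quantile normalization gives; that step is not given in the sources used here. The authors deposited the siRNA values as FPKM, a unit read from the values, with a mean normalised count (signal) per gene; the counter, annotation release and strand setting are not given in the sources used here. The submitters' processing notes name TopHat2 2.0.8, CASAVA 1.8.2 and FastQC 0.11.2. No table holds counts, so library depth is unknown. The authors' own fold changes and p-values, also in the tables, were not used, 1 check of the knockdown is not reported here, and 0 columns of per-sample values were left unused.

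Samples were grouped by title. The tables were fitted separately in R 4.3.3 with limma 3.58.1 (lmFit, eBayes with trend, two-sided, Benjamini-Hochberg over all genes): log2(FPKM + 0.1) for the 14274 genes averaging 0.5 FPKM or more, called at an unadjusted p of 0.05, and log2 CPM of 13029 genes, called at an adjusted p of 0.05 and 1.5-fold, the thresholds of the study. Fold changes on log2(FPKM + 0.1) understate those of low genes. Exact permutation tests cannot go below 0.333 for 2 against 2 libraries or 0.1 for 3 against 3. The fits were tested on simulated data. Tables were handled with Python 3.11.15 and pandas 2.3.3.

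Named genes are list members, the 12 most abundant, up to 10 largest calls per direction and table with groups that do not overlap, members called in both tables or joined by symbol and called, those next to the threshold, and neighbours; the other genes named (FOXD1-AS1, LINC02193, ZNF888, LINC00839, SCAMP1-AS1, MIR200CHG, OSER1-DT, VPS13B-DT and EDRF1-DT) were chosen after their values were seen. The members and gene lists were chosen with earlier results of these data known. Alternatives changed the pseudocount, filter, centring, variance trend, replicate block, threshold, join and member set, and left out each library.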

Additional observations from a re-analysis of the deposited data

How the results depend on the processing

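Against 35 higher and 30 lower lincRNAs with sip53, there were 9 and 5 among genes averaging 5 FPKM or more, 0 and 0 at an adjusted p, 20 and 18 with an authors' mean count of at least 50 (an alternative chosen after seeing the data), and 15 lower with members of at least 2 FPKM. The median log2 change of 0.02 was 0.10 at 5 FPKM, 0.10 after centring each library, 0.0550 at 2 FPKM and -0.0063 at a mean count of 50. Leaving out 1 library gave 25 to 30 higher, 14 to 26 lower and medians of -0.10 to 0.0395. In ZMAT3-KO, against 4 higher and 5 lower, a pseudocount of 1 CPM gave 2 higher, an adjusted p without the fold limit 10 and 13, and the join by symbol 7 higher; leaving out 1 library gave 4 to 5, 4 to 5 and medians of -0.05 to -0.01. The remaining settings stayed within 1.5 times the counts. Replicate numbers did not pair the samples (correlation of deviations -0.62 in the siRNA table over all genes, -0.04, -0.02 and -0.09 in the ZMAT3 table). With the replicate number as a block, 29 lincRNAs were higher and 20 lower with sip53, 1 of them at an adjusted p, and in a crossed block, chosen after seeing the data, 64 and 51, 84 at an adjusted p, while over all genes it called 2410 higher and 3128 lower (16.9% and 21.9%). Of 612 recalculations of 65 named lincRNAs with sip53, 532 kept direction and side of the threshold, 71 lost and 9 gained a call; in ZMAT3-KO, of 415 for 38, 399 kept both, 14 lost and 2 gained a call. No called value changed sign; 27 and 6 uncalled values did. All of these are limited by read depth, since 104 lincRNAs had an authors' mean count under 50.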
